A study of Mus musculus with 30 samples.

Results

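Described here are 1050 regions of the mouse genome that held the Polycomb-associated protein EPOP together with Suz12, that lacked a Jarid2 peak without knock-down, and that held a Jarid2 peak once EPOP had been knocked down. They are called the Jarid2-gain regions below. They make up 18.4% of the 5720 EPOP regions of these cells. An EPOP region was a merged interval holding a peak of both EPOP lists without knock-down. Of the 5720, 5135 (89.8%) overlapped a Suz12 region, and 4374 of those overlapped no Elongin B (EloB) region. Of these, 2803 overlapped no peak of the Jarid2 list without knock-down and are called candidates. The Jarid2 list upon EPOP knock-down then held a peak at 1050 of the candidates and at none of the other 1753. Suz12 regions (5669) and EloB regions (930) were likewise defined by a peak of both lists without knock-down, and an overlap of 1 bp sufficed throughout. The Jarid2 lists chose the regions, so every Jarid2 value at them is a description and carries no test.

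The measurements are chromatin immunoprecipitation with sequencing (ChIP-seq) in E14Tg2A, an established mouse embryonic stem cell line, kept without feeder cells in medium with serum and the cytokine LIF. All groups shared this line and this medium, and 6 targets gave 20 peak lists. Without knock-down there were 2 lists each for EPOP (labelled C17orf96, an earlier name), EloB, Suz12 and H3K4me3, and 1 each for Jarid2 and H3K27me3. Upon EPOP knock-down there were 2 lists each for EPOP and EloB and 1 for each of the other 4 targets, and upon EloB knock-down there was 1 list each for Suz12 and H3K4me3. EPOP was depleted by a short hairpin RNA carried in by lentivirus with puromycin selection, and EloB by transfected small interfering RNA, so the line upon EPOP knock-down still makes whatever EPOP the hairpin left. The labels give no time after knock-down for these lists, and whether replicates came from separate cultures is not said. The file headers name a hairpin control for 1 Suz12 and 1 H3K4me3 list without knock-down and a small interfering RNA control for the other of each. By their names, the Jarid2 list, both EloB lists and 1 EPOP list without knock-down were hairpin controls too. Without knock-down thus includes cells given a control hairpin or a control small interfering RNA. They also give the H3K27me3 knock-down list another hairpin number than the Jarid2, Suz12 and H3K4me3 knock-down lists. For EPOP knock-down replicate 1, the title and the antibody name EPOP while the description names IgG. This conflict touches every statement below on EPOP peaks upon knock-down, and no other value. Depth is unknown for every list.

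Polycomb repressive complex 2 (PRC2) places the repressive mark H3K27me3 on chromatin, and Suz12 is one of its core subunits. PRC2 occurs in alternative forms: in one, Jarid2 and Aebp2 join the core, and in another, a Polycomb-like protein joins it together with EPOP or PALI1. Jarid2 binds nucleosomes and stimulates the enzyme, whereas EPOP bridges PRC2 to Elongin B and C, which are known from transcription elongation and from ubiquitin ligases. In embryonic stem cells PRC2 sits mostly at CpG islands of developmental genes, many of which also carry H3K4me3, the mark of promoters, and are then called bivalent. No gene model of the files' build (mm9) was used here, so the regions are named by position alone, counted from 1.

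The gain of Jarid2 was frequent at EPOP-Suz12 sites upon EPOP knock-down. Then, 37.5% of the 2803 candidates held a Jarid2 peak, the share that the choice of regions fixes. Of all 3396 EPOP regions without Jarid2, 31.3% gained one, but these include the 2803 candidates, which held 1050 of the 1062 gains. Of the 820 Suz12 regions without EPOP and Jarid2, 6.46% gained a peak. These 820 were not matched to the candidates for Suz12 score. Among the candidates, 3.57% gained a peak in the lowest and 87.0% in the highest of 5 groups by Suz12 score (replicate 2). Whether the 6.46% goes with the lack of EPOP or with Suz12 strength was not tested. Among EPOP-Suz12 regions without EloB, the share with Jarid2 was 35.9% without knock-down and 59.1% upon knock-down. Only 36 regions of this kind had a Jarid2 peak without knock-down and none upon it. The Jarid2 knock-down list was longer as a whole, with 3665 peaks against 2641, and both conditions had 1 list, so the gain has no replicate check. With the lists of each target shortened by score to equal length, 385 regions met the rule and the gain share was 16.0%. With only the higher-scoring peaks of each target, 812 regions met it, and 142 (13.5%) of the 1050 overlapped one of them.

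The Jarid2 peaks gained were low in their own list. The score is the authors' value for each peak; it starts at 50 in every list, no source used here says how it was computed, and it serves only to rank peaks within a list. At the Jarid2-gain regions the Jarid2 knock-down list held 1066 distinct peaks, 29.1% of that list, with scores from 50.07 to 2848.64, quartiles of 69.9 and 135 and a median of 94.3. The whole knock-down list had a median score of 238. At the 1535 EPOP-Suz12 regions that lacked EloB and held Jarid2 in both lists, the median knock-down score was 307. Without knock-down the median score was 127 at these 1535 regions and 175 over the whole list. Their Jarid2 peaks were also wider upon knock-down, with a median log2 ratio of 0.30, so a higher Jarid2 value was not particular to the gain regions. The Jarid2-gain regions thus stood at the lower end of the knock-down list, as the rule favours, since regions that already held Jarid2 were left out. Their median rank was 2862.5, and 387 of the 1066 peaks were among the 2641 highest of that list.

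**Figure D1:**
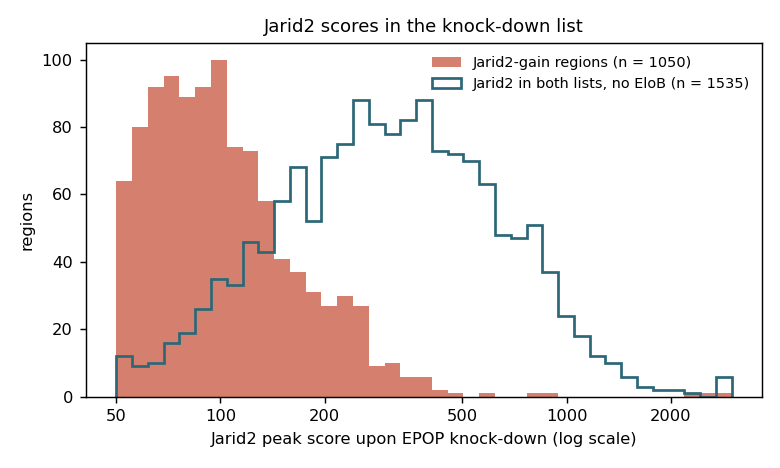
Histogram of the Jarid2 peak score upon EPOP knock-down (log axis) for the 1050 Jarid2-gain regions (filled) and the 1535 EPOP-Suz12 regions without EloB that held Jarid2 in both lists (outline), as numbers of regions in each bin of score. The filled bars crowd between 50 and 200, with 109 gain regions at a score of at least 200, and the outline peaks near its median of 307.

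How far up the list the gain regions reached can be read from score limits. A Jarid2 score of at least 60 was reached by 925 regions (88.1%), one of at least 100 by 474 (45.1%) and one of at least 200 by 109 (10.4%). Read the other way, all EPOP-Suz12 regions without EloB that held a Jarid2 peak upon knock-down were ranked by that score and divided into 6 groups of near equal size. In the lowest group 12.5% had held a Jarid2 peak without knock-down, and the shares in the following groups were 26.0%, 51.5%, 74.9%, 93.0% and 98.4%. Gained peaks were therefore most of the low scores and almost none of the high ones.

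The gained peaks lay on the EPOP regions and were narrow. Their width ran from 676 to 10242 bp with a median of 1489 bp, against 1987 bp for the whole knock-down list. Of 1070 pairs of a peak and a gain region, 739 had the peak wholly inside the region, and in 89.3% the centres lay within 500 bp of each other. The median gain region had 73.5% of its length under Jarid2, and 1030 of the 1050 held a single Jarid2 peak. Upon knock-down, the Jarid2 peak was narrower than the Suz12 peak at the same region, with a median log2 ratio of -0.31, and at regions with Jarid2 in both lists this log2 ratio was -0.23.

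Regions on chromosome 18 are not named here, one of which had the third highest Jarid2 score of all gain regions (2376.49). Of the 10 highest on the other chromosomes, 8 owed their score to a Jarid2 peak that also covered a neighbouring Jarid2 site already present without knock-down. The highest was chr13:99127129-99129846, a 2718 bp region with a Jarid2 score of 2848.64, whose nearest Jarid2 peak without knock-down was 614 bp away. Its Suz12 score was 3100 in all 4 Suz12 lists. The second was chr6:52149155-52151443, with a Jarid2 score of 2626.17 from a peak of 10242 bp, the widest at any gain region, and a Jarid2 peak without knock-down 863 bp away. The first of the 8 held a further Jarid2 peak of its own, and the others did not, so their scores belong to sites that had Jarid2 before. Over all 1050 regions such shared peaks numbered 12 and touched 12 regions, of which 9 had no other Jarid2 peak. Leaving them out gave 1041 regions in place of 1050.

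The other 2 of these 10 had no Jarid2 peak of this shared kind. With chromosome 18 counted, the lower of them falls outside the 10 highest. At chr16:15886354-15889117 the Jarid2 score was 408.02, and the nearest Jarid2 peak without knock-down was 1870217 bp away. Its EPOP scores without knock-down were 439.41 and 357.03, and it had no EPOP peak in either knock-down list. This region held Suz12 throughout, with scores of 1499.71 and 949.12 without knock-down, 1733.54 with EPOP depleted and 3100 with EloB depleted. H3K27me3 had a score of 306.1 without and 256.87 upon EPOP knock-down, and H3K4me3 had 3100 in all 4 lists. The 14 lists with a peak here included EloB replicate 2 without knock-down (52.54), so the region missed the EloB definition by 1 list.

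At chr9:40963898-40966756 the Jarid2 score was 404.49, with the nearest Jarid2 peak without knock-down 276213 bp away. Suz12 had scores of 3100 and 1214.5 without knock-down, 2231.54 with EPOP depleted and 3100 with EloB depleted. H3K27me3 had a score of 412.74 and a peak of 3133 bp without knock-down, and 695.03 and 3333 bp in the knock-down list. Here too 1 EloB list without knock-down held a peak (91.22, replicate 1), and neither EloB list upon knock-down did. Both of these isolated regions thus carried both histone marks and an EloB peak in 1 of the 2 lists.

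The gain regions nearest to the lower limit looked like ordinary bivalent sites. The 5 with the lowest Jarid2 scores had 50.07 (chr11:32431429-32434379), 50.29 (chr12:31758010-31759460), 50.31 (chr3:102273428-102274825), 50.56 (chr5:36234994-36237734) and 50.57 (chr13:21559609-21560763). All 5 held peaks of EPOP, Suz12, H3K27me3 and H3K4me3 in both lists without knock-down, or in the 1 list of H3K27me3. Just outside the rule, candidates without gain came as near as 3 bp (chr17:35576788-35577393), 33 bp (chr3:128928930-128930888) and 76 bp (chr9:74713579-74716751) to a Jarid2 peak of the knock-down list. In all, 57 of the 1753 candidates without gain lay within 1000 bp of such a peak. Some regions on either side of the rule thus differed by a few base pairs or score units.

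The strength of Suz12 without knock-down graded the gain of Jarid2. Candidates were divided into quintiles (5 groups of near equal size) by the Suz12 score of replicate 2. From the lowest to the highest quintile, 3.57%, 12.1%, 28.2%, 56.4% and 87.0% gained a Jarid2 peak (Wilson 95% intervals 2.32 to 5.44 at the lowest and 84.0 to 89.5 at the highest, covering the counting of regions only). By replicate 1 the shares were 2.50%, 11.2%, 36.4%, 63.2% and 74.0%. Both lists gave the same order of the quintiles, and 804 gain regions (76.6%) lay in the upper 2 quintiles by replicate 2. The Suz12 score did not enter the rule, but a single Jarid2 list per condition allows no test over samples.

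**Figure D2:**
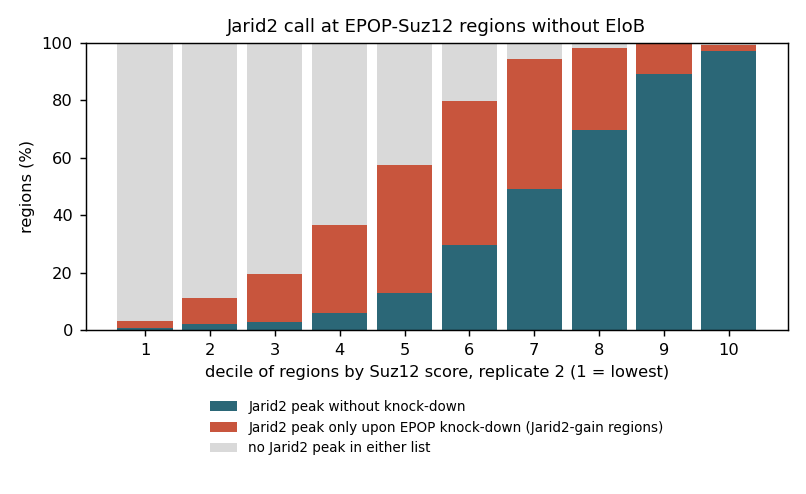
The 4374 EPOP-Suz12 regions without EloB in deciles of the Suz12 score of replicate 2 without knock-down (horizontal axis), with the percentage that held Jarid2 without knock-down, held it only upon EPOP knock-down (the Jarid2-gain regions) or held none in either list (vertical axis). The gain share is highest in decile 6, at 49.9%, and is 2.51% in the lowest and 2.05% in the highest decile, where 97.0% already held Jarid2.

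Across the whole range of Suz12 strength the gain regions filled the middle. When all 4374 EPOP-Suz12 regions without EloB were divided into deciles (10 groups) by Suz12 score, the gain shares from the lowest to the highest decile were 2.51%, 9.15%, 16.7%, 30.6%, 44.6%, 49.9%, 45.2%, 28.6%, 10.8% and 2.05%. The share with Jarid2 already present was 0.685% in the lowest decile, 12.8% in decile 5, 49.1% in decile 7 and 97.0% in the highest. In decile 9 every region held Jarid2 in at least 1 of the 2 lists. By Suz12 score, most sites that acquired a Jarid2 peak stood next below the sites that had one.

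EPOP itself and H3K27me3 graded the gain less steeply, and H3K4me3 little. From the lowest to the highest quintile of EPOP score, the gain share was 15.3% to 69.9% by replicate 1 and 9.09% to 71.8% by replicate 2. By H3K27me3 score it was 21.2% to 58.5%. By H3K4me3 score it was 24.6% to 40.8% in replicate 1 and 24.8% to 42.6% in replicate 2, with the highest share in the middle quintile (47.2% and 45.6%), although many H3K4me3 scores are tied at 3100. By the width of the EPOP region it was 23.5% to 49.9%. These measures are not independent of one another, since all are read at the same regions.

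Placed among all 5720 EPOP regions, the gain regions ranked near the middle for every polycomb target. Their median percentile without knock-down was 49.6 and 51.0 for Suz12, 49.9 and 49.0 for EPOP and 49.5 for H3K27me3. Candidates without gain had medians of 25.9 and 26.6 for Suz12, 28.4 and 27.3 for EPOP and 31.3 for H3K27me3. Regions with Jarid2 in both lists had 82.3 and 72.9 for Suz12, 71.1 and 71.8 for EPOP and 68.7 for H3K27me3. For H3K4me3 the 3 classes lay closer together, at 53.1 and 52.8 for the gain regions, 40.9 and 40.5 without gain and 51.7 and 51.9 with Jarid2 in both lists. Width followed the same order, with a median of 2109.5 bp at the gain regions (433 to 7243 bp), 1839 bp without gain and 2572 bp with Jarid2 in both lists.

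Within the 1050 regions, those with more Suz12 also had the higher Jarid2 score upon knock-down. Spearman's rho over the 1050 regions with the Jarid2 knock-down score was 0.49 and 0.53 for the Suz12 lists without knock-down, 0.56 for the list upon EPOP knock-down and 0.54 for that upon EloB knock-down. It was 0.32 and 0.35 for EPOP, 0.15 for H3K27me3 without and 0.26 upon knock-down (over the 944 and 1000 regions with a peak), and 0.12 to 0.14 for the 4 H3K4me3 lists. These are descriptions across regions, which share their lists and are not replicates.

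H3K27me3 did not enter the rule. Its list was shorter upon EPOP knock-down (7956 peaks) than without it (8811), while more of the gain regions held a peak. Without knock-down 944 of the 1050 (89.9%, Wilson 95% interval 87.9 to 91.6) held an H3K27me3 peak, and upon knock-down 1000 did (95.2%, 93.8 to 96.4). The mark was kept at 918 regions, lost at 26, new at 82 and found in neither list at 24. Among all EPOP regions 8.37% of those with the mark lost it, and at the gain regions 97.2% (96 to 98.1) kept it. Among all EPOP regions without the mark 38.4% acquired it, and at the gain regions 77.4% (68.5 to 84.3) of 106 did. The gain regions were not alone in this. At regions with Jarid2 in both lists 99.1% kept the mark, and 76.5% (63.2 to 86.0) of the 51 without it acquired it.

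At candidates without gain, losses of H3K27me3 outnumbered new peaks. There H3K27me3 was found at 77.0% without and at 74.4% upon knock-down, with 220 losses and 175 new peaks among 1753 regions. Of the 395 regions where the call differed, 44.3% (39.5 to 49.2) were new, against 75.9% (67.1 to 83.0) of 108 at the gain regions and 45.9% of 747 over all EPOP regions. Regions with Jarid2 in both lists had 39 new and 13 lost peaks among 1535. Of these 52 differing calls 75% (61.8 to 84.8) were new, much as at the gain regions. The intervals of gain and no gain do not overlap, but they cover the counting of regions only, and 1 H3K27me3 list per condition allows no test of the difference over samples. Whether the other hairpin number of the H3K27me3 list bears on this was not tested.

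H3K27me3 was also compared within groups of like Suz12 strength. In quintiles 2 to 5 of Suz12 score (replicate 2), the gain regions held H3K27me3 at 83.8%, 84.8%, 88.9% and 93.9% without knock-down and at 94.1%, 92.4%, 94.3% and 97.7% upon it. Candidates without gain in these quintiles held it at 74.2%, 80.9%, 87.7% and 97.3% without and at 69.5%, 78.4%, 90.2% and 94.5% upon knock-down. So the share with H3K27me3 was higher upon knock-down at the gain regions in each of these quintiles, and at regions without gain it was higher in quintile 4 alone. The lowest quintile held 20 gain regions, with 70% and 75%. Some quintiles are small, down to 68 gain regions in quintile 2 and 73 regions without gain in the highest, and within quintiles the intervals often overlapped.

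**Figure D3:**
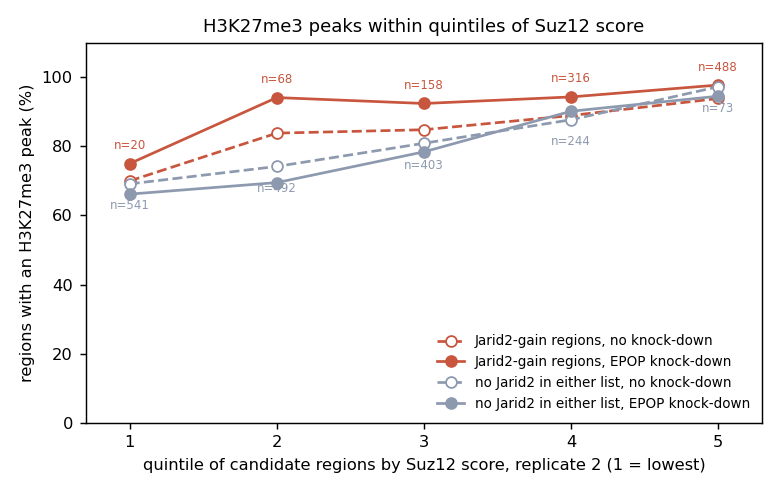
Percentage of regions with an H3K27me3 peak (vertical axis) without knock-down (open points, dashed lines) and upon EPOP knock-down (filled points, solid lines), for Jarid2-gain regions and for candidates without gain, in quintiles of Suz12 score of replicate 2 (horizontal axis, the number of regions beside each point). The filled points of the gain regions lie above their open points in every quintile, from 75% against 70% in the lowest to 97.7% against 93.9% in the highest.

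Regions that acquired H3K27me3 had lower Suz12 and EPOP scores than those that kept it. The 82 regions with a new H3K27me3 peak had a median score of 120 and a median width of 1471.5 bp for it. Their median Suz12 scores were 968 and 361 in replicates 1 and 2, against 1397 and 484 at the 918 regions with the mark in both lists and 654 and 362 at the 26 that lost it. Their median EPOP scores were 211 and 143, against 324 and 262 at the 918 and 214 and 163 at the 26. Against regions that lost the mark, those that acquired it were thus higher in Suz12 replicate 1, about equal in Suz12 replicate 2 and slightly lower in EPOP. Their median Jarid2 score upon knock-down was 91.4, against 95.9 where the mark was kept and 75.3 where it was lost.

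H3K27me3 peaks were somewhat wider upon knock-down, while the length they covered inside the Jarid2-gain regions hardly differed. Over the 918 gain regions with a peak in both lists the median log2 ratio of width was 0.18, with quartiles of -0.09 and 0.52. At least 1.5-fold wider were 201 (21.9%), beside 23% of all EPOP regions with a peak in both lists, and at least 1.5-fold narrower were 51 (5.56%), beside 5.63%. In this the gain regions were near the background. Measured as covered length inside the gain region alone, the median log2 ratio was 0.01. This length cannot exceed the region, whose median width was 2109.5 bp. Without knock-down the H3K27me3 peaks at the 918 regions already had a median width of 2252.5 bp. The measure thus left little room for an increase.

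The change in H3K27me3 width was smallest at candidates without gain and largest where Jarid2 was in both lists. The median log2 ratio was 0.04 at candidates without gain, where 19.5% were at least 1.5-fold wider and 12.1% narrower. It was 0.29 at regions with Jarid2 in both lists (27% wider, 1.50% narrower), 0.24 at regions with EloB and 0.21 over all EPOP regions. Of these classes, the candidates without gain had the largest share of narrowed peaks. No replicate of the H3K27me3 lists is at hand to set an error on these medians.

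**Figure D4:**
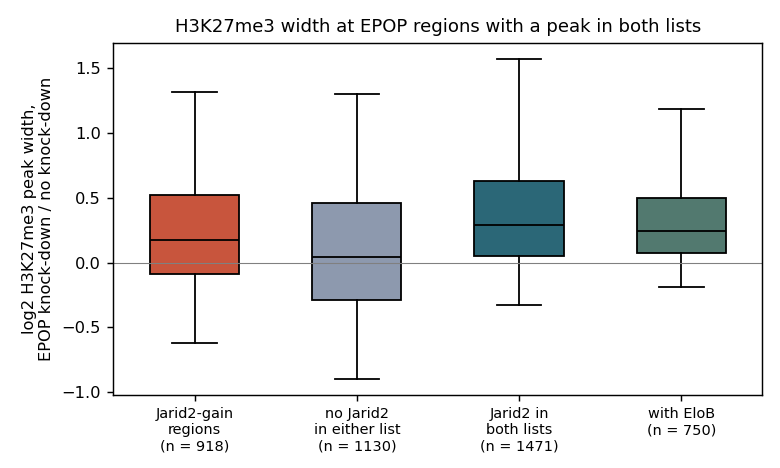
Log2 ratio of H3K27me3 peak width upon EPOP knock-down over that without it (vertical axis) at EPOP regions with a peak in both lists, in 4 classes (horizontal axis). Boxes span the quartiles with the median as a line, whiskers run from the 5th to the 95th percentile, and the medians are 0.18 at the Jarid2-gain regions, 0.04 without Jarid2, 0.29 with Jarid2 in both lists and 0.24 with EloB.

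Where H3K27me3 widened most, its peak upon knock-down reached far beyond the gain region. At chr9:74704238-74706219 the H3K27me3 peak was 1848 bp without and 22531 bp upon knock-down (log2 ratio 3.61), and the length covered inside the region had a log2 ratio of 0.10. The same 22531 bp peak also covered chr9:74713579-74716751, a candidate without gain whose H3K27me3 peak without knock-down was 5880 bp. At chr11:57649667-57651143 the widths were 1067 and 11198 bp, and at chr5:106898308-106900643 they were 2754 and 23582 bp. Each of these 3 gain regions had a Jarid2 peak without knock-down nearby, at 1230, 1733 and 2823 bp.

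Narrowing was smaller. The region with the most narrowed H3K27me3 peak, chr4:119954494-119957319, had a width of 5319 bp without and 1324 bp upon knock-down, a log2 ratio of -2.01. Its H3K27me3 score was 417.24 without and 194.87 upon knock-down. Next were chr2:91894632-91897432 with a log2 ratio of -1.53, chr9:37263274-37264943 with -1.51, chr11:52095155-52098685 with -1.50 and chr5:144130902-144132958 with -1.40. All 5 kept their Suz12 peak in all 4 lists while gaining Jarid2.

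Suz12 was present at every Jarid2-gain region in every Suz12 list. All 1050 kept a Suz12 peak upon EPOP knock-down, where 0.958% of all EPOP regions with Suz12 lost it, and all 1050 kept it upon EloB knock-down, where 1.31% lost it. A count of 0 among 1050 allows a share of up to 0.286%. Candidates without gain lost it at 49 of 1732 regions upon EPOP knock-down and at 58 upon EloB knock-down. Regions with Jarid2 in both lists lost it at 0 of 1535 upon EPOP and at 4 upon EloB knock-down. Those with EloB lost it at 0 of 761 and at 5, so full retention upon EPOP knock-down was shared by these classes. The rule asked for Suz12 in both lists without knock-down and asked nothing of the Suz12 knock-down lists.

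Upon EPOP knock-down the Suz12 peaks were, in the median, narrower than in replicate 1 without knock-down and wider than in replicate 2. The median log2 ratio of width over the gain regions was -0.26 against replicate 1 and 0.14 against replicate 2, and the replicates themselves differed by a log2 ratio of -0.43. Wider by at least 1.5-fold than both lists was 1 region (0.355% of all EPOP regions were), and 10 were narrower (1.12% of all). Over all EPOP regions the median log2 ratios were -0.28 and 0.13, so the gain regions followed the whole. The file headers name replicate 2 for the hairpin control, the method of this knock-down. The ratio of 0.14 is thus the one against the list of like control. The 2 lists differ in their control, so their ratio of -0.43 is not a spread between like replicates. With 1 such control list and 1 knock-down list, no error can be set on the 0.14.

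Upon EloB knock-down the Suz12 peaks of the gain regions were wider, in the median, than in either list without knock-down. At the gain regions the median log2 ratio of width was 0.04 against replicate 1 and 0.48 against replicate 2. Wider by at least 1.5-fold than both lists were 28 regions, 2.67% beside 2.85% of all EPOP regions, and none was narrower, beside 0.099%. The file headers name replicate 1 for the small interfering RNA control, the method of this knock-down, and against that list the difference is small.

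Nearly all Jarid2-gain regions also carried H3K4me3, the mark of promoters. Both lists without knock-down held a peak at 1020 (97.1%), near the 95.9% of all EPOP regions. H3K4me3 together with H3K27me3 was found at 916 (87.2%) without and at 973 (92.7%) upon EPOP knock-down, beside 81.2% and 80.1% of all EPOP regions. Candidates without gain carried both marks at 72.5% and 69.4%, and regions with Jarid2 in both lists at 94.0% and 95.8%. Most of the gain regions were therefore bivalent by their peaks in both conditions.

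H3K4me3 itself hardly differed between conditions at these regions. Of the 1020 regions 1019 kept it upon EPOP knock-down (0.182% of all EPOP regions with H3K4me3 lost it) and 1020 upon EloB knock-down (0.0547% of all lost it). The median log2 ratio of width upon EPOP knock-down was 0.07 against replicate 1 and -0.08 against replicate 2, with 0.15 between the replicates. As with Suz12, these replicates have unlike controls, so the 0.15 is not a spread between like replicates. At least 1.5-fold wider than both was 1 region (0.146% of all) and narrower were 3 (0.274% of all). Upon EloB knock-down the log2 ratios were 0.18 and 0.03, with 11 regions wider (1.75% of all) and 1 narrower (0.0912% of all).

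**Figure D5:**
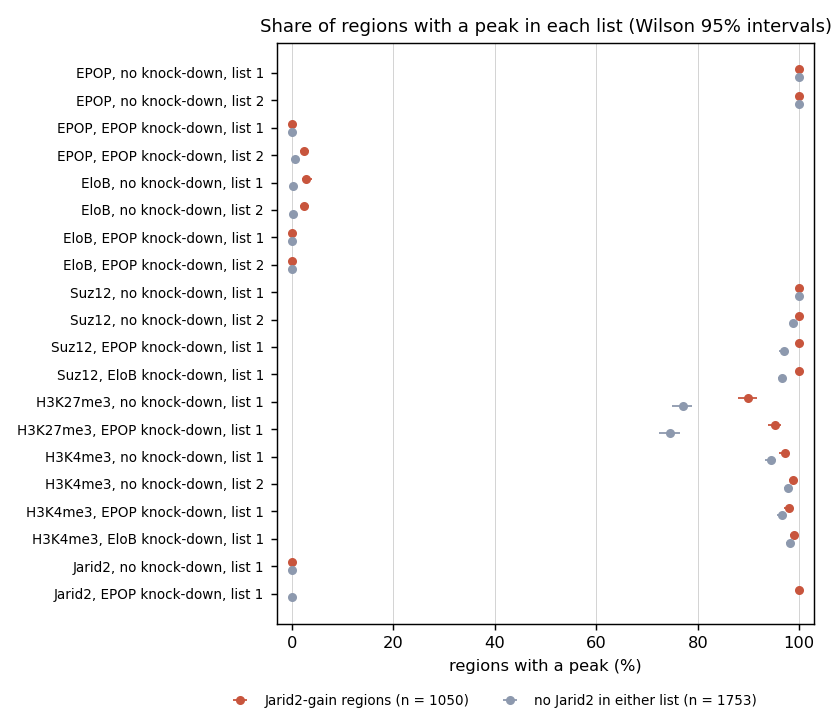
Percentage of regions with a peak in each of the 20 lists (horizontal axis), for the 1050 Jarid2-gain regions and the 1753 candidates without gain, with Wilson 95% intervals that cover the counting of regions only. The classes are furthest apart in the Jarid2 knock-down list, which chose them, then in H3K27me3 upon knock-down (95.2% against 74.4%).

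Few EPOP peaks were left at these regions upon knock-down. Without knock-down EPOP peaks covered 95.7% and 79.5% of the summed length of the regions (87.6 ± 11.5%, SD, n = 2), and upon knock-down 0.03% and 0.902% (0.464 ± 0.619%, SD, n = 2). The groups did not overlap, but the rule asked for an EPOP peak in both lists without knock-down, so the choice of regions favoured this. By the two-sided exact permutation test p was 0.333, and it cannot be less with 2 lists in each group. The comparison is therefore a description. A peak remained at 1 region (0.0952%) in replicate 1 and at 24 (2.29%) in replicate 2, beside 0.839% and 8.88% of all EPOP regions. The scores of the 24 were 50.02 to 117.39. Without knock-down the scores had been 53 to 1258.71 in replicate 1 (median 309) and 51.17 to 1421.87 in replicate 2 (median 242). The coverage without knock-down follows from the rule, while that upon knock-down does not.

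EloB was found in traces only, as the rule asks for no EloB region. A peak of a single EloB list was allowed, and 29 gain regions (2.76%) had one in replicate 1 and 24 (2.29%) in replicate 2, beside 16.3% and 20.6% of all EPOP regions. That makes 52 regions (4.95%) with a peak of at least 1 list, beside 23.4% of all EPOP regions. At candidates without gain it was 5 and 4 of 1753 regions. Upon EPOP knock-down no gain region held an EloB peak in either list, which allows a share of up to 0.286% each. The knock-down lists held only 164 and 127 EloB peaks, and 0.035% and 0.0524% of all EPOP regions had one, so the 0 at the gain regions is near the share of the whole. The EloB scores at the gain regions, 50.24 to 116.08 and 51.36 to 113.67, lay near the lower limit of their lists.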

How the data were processed

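ChIP-seq peak lists of 20 samples were used; the IgG sample and 9 RNA samples were not analysed here. The titles give groups and replicate numbers. The submitters' processing notes name Bowtie, TopHat, Cufflinks and mm9, without versions; TopHat and Cufflinks are not named for the Jarid2 lists. Peak names contain MACS; no source used here states how peaks were called. The deposited score is the authors' value per peak, and scores were ranked only within a list. Each list belongs to 1 sample.

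Widths are sums over all peaks of a list that overlap a region, counted in full, and log2 ratios are medians over regions. Where a region held several peaks of a list, its score is the highest. Shares carry Wilson 95% intervals. EPOP coverage was compared by an exact permutation test. The regions and lists were chosen with earlier results of these data known. Named were the 10 regions with the highest and the 5 with the lowest Jarid2 knock-down score, the 5 with the highest Suz12 score, the 5 candidates nearest to a Jarid2 peak, and the 5 most widened and 5 most narrowed in H3K27me3, chromosome 18 left out; some are printed. Gene lists had been set for an annotation of mm9, which was not used here, so no gene is assigned and no sequence is shown. Replicate numbers of EPOP pair lists by antibody lot.

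As alternatives, each list was limited to its higher-scoring part or to equal length, an overlap of 0.5 of the shorter interval or a distance of 1000 bp was used, regions were taken from either list or from autosomes and X, each replicate was left out, and ratios were taken within replicate numbers. Chosen after seeing the data were the covered length inside a region, the new share of H3K27me3 calls, and leaving out Jarid2 peaks shared with a site present without knock-down. Python 3.11.15, NumPy 2.4.6, pandas 2.3.3, SciPy 1.17.1, Matplotlib 3.10.9 and bedtools 2.31.1 were used. The rule was tested on simulated data, where 668 of 668 members among 3000 regions were recovered, and overlaps matched bedtools in 400 of 400 pairs of lists.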

Additional observations from a re-analysis of the deposited data

How the results depend on the processing

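The number of regions depended on the length of the lists. With lists of equal length it was 385, of which 381 overlapped a reported region, and the gain share was 16.0%; H3K27me3 was then kept at 98.9% and was new at 87.5% of the regions that differed. With only the higher-scoring part of the lists there were 812 regions, and 142 (13.5%) of the 1050 overlapped one of them. The gain share was then 45.4%, H3K27me3 was kept at 99%, its log2 width ratio was 0.29, and 91.8% of differing calls were new. With regions of either list the gain share was 21.7%. Covered length inside a region gave 0.012 for the log2 width ratio of H3K27me3. With 1 replicate left out, the number of regions ran from 1021 to 1139 and the gain share from 32.0% (without EPOP replicate 2) to 37.0%, with 34.9% without Suz12 replicate 2. The share of regions that kept H3K27me3 ran from 96.5% to 97.4%, its log2 width ratio from 0.18 to 0.19 and the new share from 72.9% to 77.4%. Suz12 was kept at 99.9% to 100%. Its log2 width ratio to the mean of both lists, -0.08, ran from -0.26 to 0.14, the sign turning without Suz12 replicate 1. That of H3K4me3, -0.01, ran from -0.081 to 0.069, the sign turning without H3K4me3 replicate 2. EPOP coverage upon knock-down relative to that without it was 0.530%, and 0.03% to 1.03% with 1 list left out. Within replicate numbers (replicate block) the paired ratio was 0.581%. No paired test was run, and the exact p of 0.333 is that of the unpaired permutation test. In all, 104 of 118 alternative values kept their direction and moved by less than 1.5 times, for counts, or by less than their interval or spread. The cause of the differences was not tested. Of the 26 named gain regions, 10 remained with lists of equal length and 7 with the higher-scoring part. Depth is unknown, so a missing peak does not show that a protein was absent.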

Other observations

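Jarid2-gain regions lay on all 19 autosomes and on X. The share of candidates that gained Jarid2 was 29.2% to 44.6% on the autosomes and 57.1% (28 of 49, Wilson 95% interval 43.3 to 70.0) on X. The interval of X reaches into the range of the autosomes, and X was singled out after its value was seen.

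The gain regions were scattered, and their distances to sites that already held Jarid2 were like those of candidates without gain. Their median distance to the nearest Jarid2 peak without knock-down was 212456 bp, against 183321 bp without gain, and 8.86% against 8.33% lay within 5000 bp of one. Another gain region lay within 10000 bp of 44 (4.19%) and within 50000 bp of 135 (12.9%). To the nearest EloB region the median distance was 778506 bp, against 535982 bp without gain.

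A group of 12 gain regions, chosen after its values were seen, had no H3K4me3 peak in either list without knock-down. They were 1.14% of the gain regions, beside 1.64% of all EPOP regions, so such regions were not more frequent here. All 12 held H3K27me3 without knock-down and 9 did upon knock-down. Their median Suz12 score was 3100 in replicate 1 and 336 in replicate 2, against 1296 and 472 at the 1020 regions with H3K4me3 in both lists. Their median EPOP scores were 146 and 261, against 314 and 242, so the 2 EPOP lists differed in direction. Their Jarid2 knock-down scores ran from 52.1 to 2376.49 with a median of 104. Among the 50 highest Jarid2 scores of the gain regions were 3 of these 12. Of these, chr5:98600456-98602073 (582.85) and chr5:67618784-67620084 (444.06) owed their score to a Jarid2 peak that also covered a Jarid2 site present without knock-down. The 24 gain regions with H3K27me3 in neither list had a median H3K4me3 score of 3100 in both lists without knock-down, and the 82 with a new H3K27me3 peak had 1342 and 1900.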
